A study of Arabidopsis thaliana with 60 samples.

Results

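The genes described here are the UDP-glycosyltransferases of Arabidopsis thaliana that carry a UGT symbol, and their transcripts were followed through 20 kinds of leaf sample. The members were all probe sets annotated to a single gene whose symbol is UGT followed by digits, a letter and digits, with UGT78D1 and UGT78D2 left out. This gave 45 probe sets for 45 genes, of 13513 probe sets with a single annotated gene and 22746 probe sets in all. A further 3 probe sets that name a UGT gene together with another gene were not used. By the number in their names the members fall into 11 subfamilies, and by number and letter into 21 lettered groups. UGT80B1 meets the naming rule, but it is known as an enzyme that glucosylates sterols and stands apart from the family that acts on plant secondary products.

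Enzymes of this family move a sugar, mostly glucose, from a UDP-sugar onto a small acceptor molecule. Glucosylation makes the acceptor more soluble, usually ends the activity of a hormone, and lets the product be stored in the vacuole. Known acceptors of the Arabidopsis enzymes include abscisic acid, auxin, cytokinins, salicylic acid, monolignols and other phenylpropanoids, flavonoids and the precursors of glucosinolates, the sulfur-rich defence compounds of the cabbage family.

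The study hybridised RNA of whole leaf samples to 60 arrays of 1 colour, with 3 arrays in each of the 20 groups. Values were deposited as MAS5 signals on a linear scale, set so that the trimmed mean of every array is 100, and signals below are given on this scale. Differences are on the log2 scale after adding 6.139 to every signal, with the standard error of a limma model over all 60 arrays. This addition makes a difference smaller than the ratio of the signals where a probe set is dim.

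Soil-grown plants of the accession Col-0 in continuous light at 23 °C and 65% relative humidity gave 14 of the groups. These were cotyledons, leaves 1 and 2, leaf 4 at a length of 1 cm, rosette leaves 2, 4, 6, 8, 10 and 12, cauline leaves, which are borne on the flowering stem, senescing leaves, and leaf 7 divided into petiole, proximal blade and distal blade. The labels state that leaf 12 measured about 1 cm when the rosette leaves were taken, so that leaf 2 was the oldest and leaf 12 the youngest of that series. A line labelled gl1T, in the Col-0 background according to the labels of its leaf 12, gave leaf 4 at 1 cm and leaf 12 under the same conditions. Its alleles are not described further in the labels. Vegetative Col-0 rosettes grown in 10 h of light and 14 h of dark at 22 °C gave 3 sets, numbered 87, 89 and 90. Leaves of Col-0 plants on medium with 1% sucrose, in long days at 22 °C, formed the last group. Whether the 3 arrays of a group stand for different plants is not in the labels, and the p-values thus cover the spread of these arrays only, which could be technical.

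Between arrays of the same group r was 0.982 to 0.990, and the ratio of 3' to 5' signal of the GAPDH controls ran from 0.824 to 3.23. The 3.23 was that of gl1T leaf 12 array A, and the next highest was 2.14. The ubiquitin ratio was lowest in the senescing leaves, at 1.58 to 1.79, against a highest value of 5.84 elsewhere. The actin ratio was 8.77 to 11.7 in senescing leaves and 8.94 to 14.4 in the petiole, and its lowest were 1.76 to 1.85 on sucrose medium and 1.88 to 2.93 in cotyledons. One array of rosette leaf 6 is labelled leaf 4 in its tissue field. Its lowest r to the other leaf 6 arrays was 0.984 and its highest to a leaf 4 array 0.982, and results that change when it is moved are given beside them. The labels of the Col-0 leaf 4 samples of 1 cm note soil on the tissue. PYK10, a beta-glucosidase known from roots, had mean signals of 2088, 1396 and 888 in short-day sets 87, 89 and 90 and of 828 on sucrose medium, and between 8.88 and 272 in the other groups. In bulk leaf tissue, fewer cells of a type and less RNA per cell cannot be told apart, and since every array is scaled to the same mean, a change in total RNA is not seen.

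A probe set was tested where its signal lay above the 40th percentile of its own array, 17.5 to 23.9, on all arrays of at least 1 group. Of the 45 members 26 were tested, and 12 of these lay above that percentile on all 60 arrays. The 12 were UGT71B1, UGT71C4, UGT71C5, UGT74B1, UGT74D1, UGT76C1, UGT80B1, UGT84A3, UGT85A2, UGT85A4, UGT87A2 and UGT88A1. UGT71B6, UGT73B5, UGT73D1, UGT76D1, UGT85A3 and UGT85A7 passed through only 1 to 3 groups. A member that passed only through a group where it is high had to differ there, so where any of the 26 was called the count over the 12 is given as well.

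The 19 members not tested were UGT71B5, UGT71B8, UGT71C1, UGT71C2, UGT71C3, UGT72E3, UGT73B4, UGT73C1, UGT73C2, UGT73C7, UGT74F1, UGT76B1, UGT76E1, UGT76E12, UGT76E2, UGT78D3, UGT84A1, UGT84B1 and UGT84B2. Their highest signal on any array was 23.6, for UGT76B1 in rosette leaf 6, and the other 18 stayed below the percentile on every array. They include UGT74F1 and UGT76B1, which glucosylate salicylic acid and related defence compounds, UGT84B1, which acts on auxin, UGT72E3, which acts on sinapyl alcohol, and UGT78D3, a flavonol arabinosyltransferase. By subfamily, 5 of 5 members of UGT85, 3 of 4 of UGT72, 4 of 9 of UGT71, 4 of 8 of UGT76, 3 of 7 of UGT73, 2 of 3 of UGT74 and 2 of 5 of UGT84 were tested, and the single members of UGT80, UGT87 and UGT88 but not that of UGT78.

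Among the 20 groups, 22 of the 26 tested members differed by the limma F test (adjusted p below 0.05 and at least 1 on the log2 scale between the lowest and the highest group mean), against 78.3% of all probe sets tested. Among the 12 bright on all arrays 10 did, against 73.0% of all probe sets bright on all arrays. The median range of group means was 2.19 on the log2 scale for the members and 1.58 for all probe sets tested. The 2.19 includes members that the filter admitted through a few groups where they are high. In order of range, UGT74D1 (1.55) and UGT88A1 (1.63) stood in the middle of the 12 bright on all arrays. The highest group mean lay in the senescing leaves for 11 of the 26 members, or 42.3%, against 29.0% of all probe sets. These 11 include UGT71B6, UGT73B5, UGT73D1 and UGT76D1, which the filter admitted through no more than 3 groups, the senescing leaves among them. Of the 12 bright on all arrays, 3 (UGT80B1, UGT84A3 and UGT87A2) were highest in senescing leaves, against 28.9% of all probe sets bright on all arrays. The lowest group mean lay in the petiole of leaf 7 for 5 members, or 19.2%, against 5.08% of all probe sets, and 4 of these 5 were bright on all arrays, or 33.3% of the 12 against 5.05%.

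**Figure D1:**
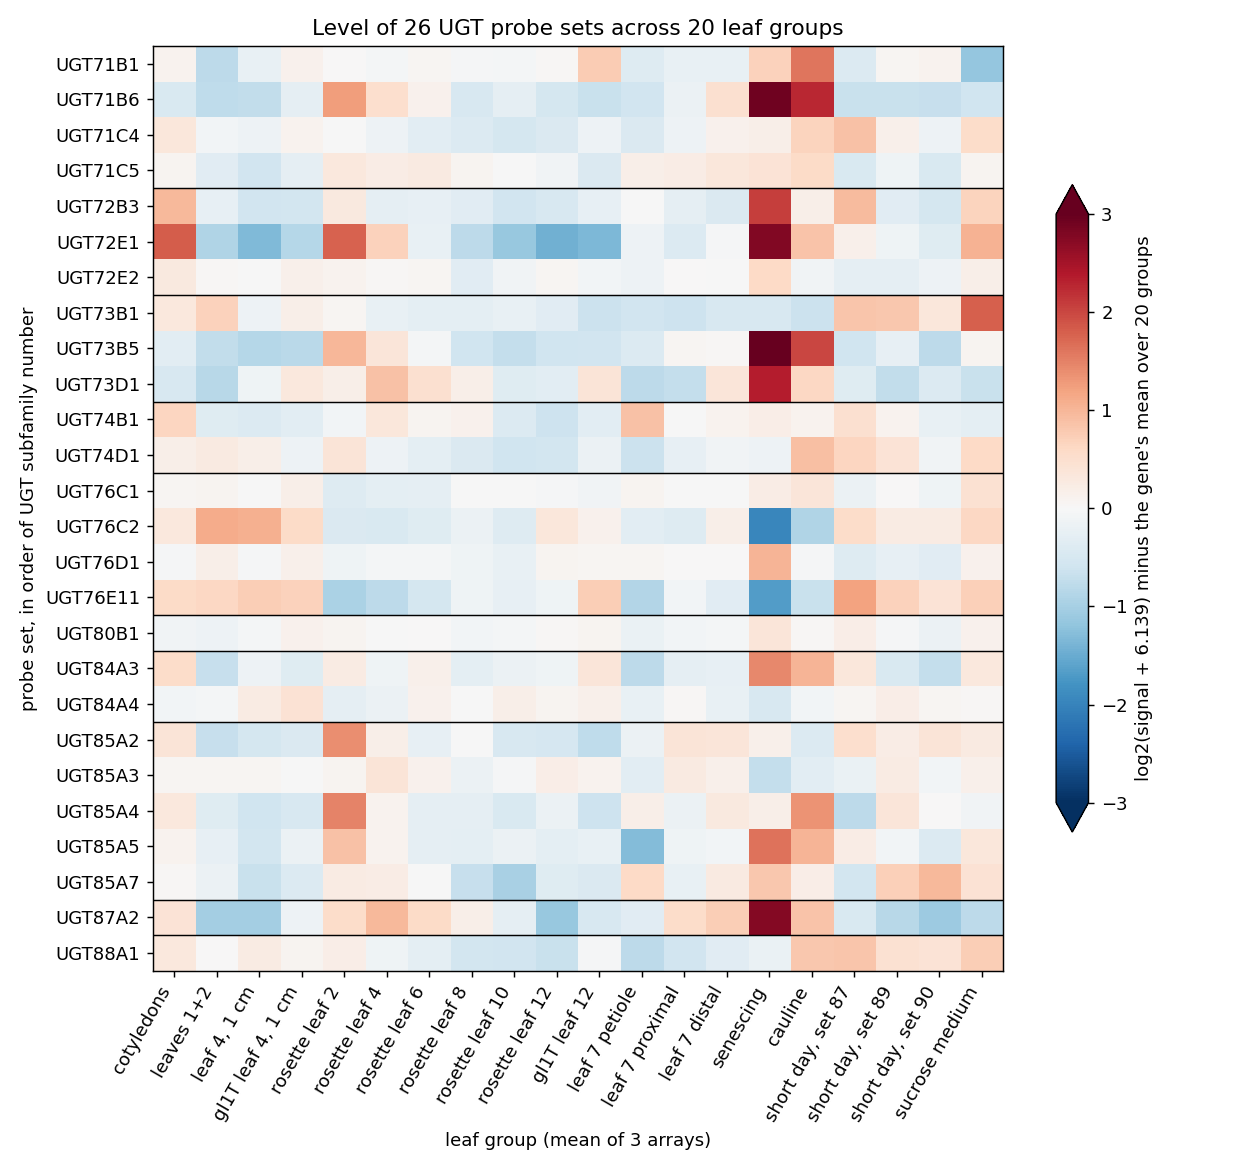
Group means of the 26 tested UGT probe sets (rows, by subfamily number) in the 20 leaf groups (columns), each as log2(signal + 6.139) minus the mean of that probe set over the groups, so that red is above and blue below its own mean. The senescing column holds the highest value of 11 rows, and UGT73B5 spans the widest range, 4.57.

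The 6 members with the widest ranges were UGT73B5 (4.57 on the log2 scale), UGT72E1 (4.21), UGT87A2 (3.88), UGT71B6 (3.68), UGT73D1 (3.21) and UGT76C2 (3.07). The first 5 were highest in senescing leaves and UGT76C2 was lowest there. UGT73B5 takes part in resistance to bacterial infection, UGT72E1 glucosylates coniferyl aldehyde and so belongs to monolignol metabolism, UGT87A2 is known for an effect on flowering time, UGT71B6 glucosylates abscisic acid, and UGT76C2 attaches glucose to the ring nitrogen of cytokinins.

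UGT73B5 had signals of 169, 173 and 138 in the 3 arrays of senescing leaves, 43.4, 40.6 and 48.1 in cauline leaves and 19.3, 19.3 and 18.1 in rosette leaf 2. Its next highest group mean was 9.92, in rosette leaf 4. UGT71B6 followed the same order, with 67.1, 90.96 and 74.7 in senescing leaves, 47.5, 51.8 and 41.2 in cauline leaves and 20.4, 20.1 and 20.1 in rosette leaf 2. For both genes the arrays of these 3 groups did not overlap with each other.

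UGT72E1 had 465, 457 and 461 in senescing leaves, 239.9, 243 and 224 in cotyledons and 222, 241 and 221 in rosette leaf 2. Cotyledons and rosette leaf 2 overlapped, and both lay far above rosette leaf 12, at 19.5, 16.5 and 21.7. UGT87A2 had 1011, 932 and 978 in senescing leaves, and its next highest mean was in rosette leaf 4, with 287, 270.4 and 274. Its lowest was in rosette leaf 12, with 60.4, 57.6 and 62.7.

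UGT73D1 had 70.6, 60.01 and 44.1 in senescing leaves and no signal above 20.3 on any other array. UGT76C2 ran the other way, with 145, 98.2 and 129 in leaves 1 and 2 and 120.4, 118 and 114 in 1 cm leaf 4, but 11.7, 4.36 and 12.9 in senescing leaves. Its senescing arrays lay below all other arrays of the series, the nearest being a cauline array at 18.6.

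**Figure D2:**
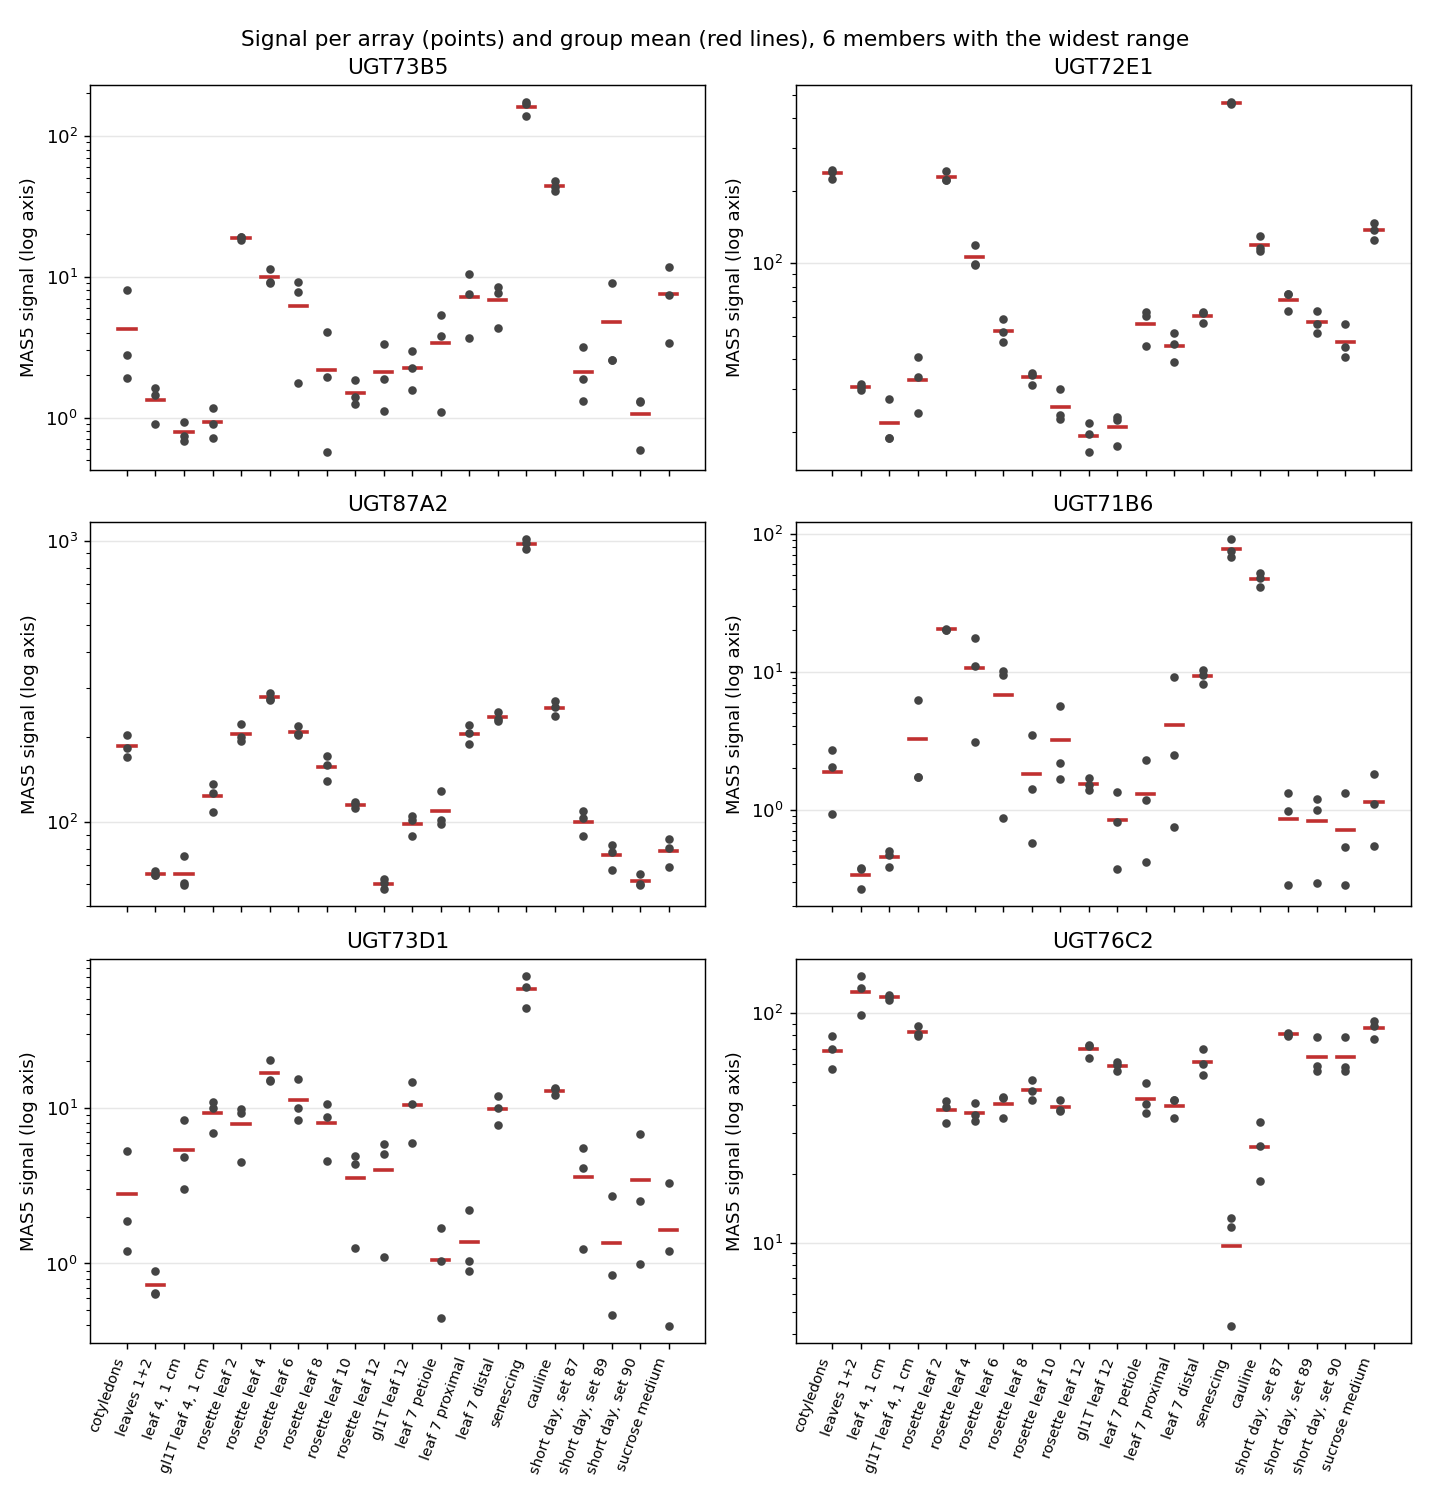
Signal of the 6 members with the widest range on each array (points) with the group mean, on a log axis, in the 20 leaf groups. Senescing leaves are highest for UGT73B5, UGT72E1, UGT87A2, UGT71B6 and UGT73D1 and lowest for UGT76C2.

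The 4 members with the narrowest ranges were UGT80B1 (0.56 on the log2 scale), UGT76C1 (0.84), UGT84A4 (0.93) and UGT72E2 (0.95), and these were the 4 that did not meet the criterion of the F test. All 4 had an adjusted p of 0.0022 or less in the limma F test and fell short only of the range of 1. Group means of UGT80B1, the sterol glucosyltransferase, ran from 75.1 in the petiole to 114 in senescing leaves. UGT76C1, which like UGT76C2 conjugates cytokinins, ran from 33.1 in rosette leaf 2 to 63.3 on sucrose medium. UGT84A4, which forms glucose esters of hydroxycinnamic acids, ran from 18.1 in senescing leaves to 40.1 in gl1T leaf 4. UGT72E2, which glucosylates the monolignols coniferyl and sinapyl alcohol, ran from 20.7 in rosette leaf 8 to 45.6 in senescing leaves.

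Along the rosette, from old leaf 2 to young leaf 12, 7 of the 26 members fell and 0 rose, where 11.4% of all probe sets tested fell and 11.6% rose. Of the 12 members bright on all arrays, 3 fell and 0 rose, against 8.48% and 8.85% of the 9803 probe sets bright on all arrays. The median over the 26 members was -0.59 on the log2 scale, against 0.01 for all probe sets. The difference is the fitted change from leaf 2 to leaf 12 over the 6 leaves, and here and below a member is said to have risen or fallen at a difference of 1 or more with an adjusted p under 0.05.

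UGT72E1, the coniferyl aldehyde enzyme, fell by 3.16 ± 0.11 (adjusted p = 8.4e-32). Its means were 228, 106, 52.5, 33.6, 25.3 and 19.2 in leaves 2, 4, 6, 8, 10 and 12, so that each leaf lay below the one before it. Its arrays ran from 98.6 to 119.5 in leaf 4, from 47.1 to 58.6 in leaf 6 and from 31.3 to 35.1 in leaf 8.

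UGT87A2 fell by 1.78 ± 0.079 (adjusted p = 1.0e-26). It was not highest in the oldest leaf: leaf 2 had 199.9, 223 and 193, leaf 4 had 287, 270.4 and 274, and the level dropped from there to leaf 12. UGT71B6 fell by 1.69 ± 0.22 (adjusted p = 8.7e-10) and UGT73B5 by 1.69 ± 0.20 (adjusted p = 6.0e-11). The leaf 2 arrays given above were the highest of the rosette series for both genes, and from leaf 8 on no array of either passed 5.67. UGT73B5 lay above the filter percentile on 6 arrays, those of senescing and cauline leaves, and thus on no rosette array. UGT71B6 lay above it on 8 arrays of the series, those of senescing and cauline leaves among them. With a constant 4 times larger added to every signal, the differences were -0.73 for UGT71B6 and -0.70 for UGT73B5, short of the threshold.

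The other 3 that fell belong to UGT85A, a lettered group whose 5 members were all tested. UGT85A2 had 290.2, 314 and 306 in leaf 2 and 72.7, 89.8 and 67.5 in leaf 12 and fell by 1.61 ± 0.11. UGT85A4 had 144, 142 and 142 in leaf 2 and only 22.9 to 57.4 in leaves 4 to 12, so its fall of 1.43 ± 0.15 was a step from leaf 2 to leaf 4. UGT85A7 fell by 1.04 ± 0.37, but its arrays of leaf 2 (34.7, 14.8 and 11.4) and of leaf 12 (2.16, 20.7 and 12.9) overlapped. The difference of UGT85A7 was short of the threshold without array A of leaf 2 (-0.78), leaf 4 (-0.99) or leaf 12 (-0.70), without array C of leaf 10 (-0.996), and with the doubtful array moved to leaf 4 (-0.98).

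**Figure D3:**
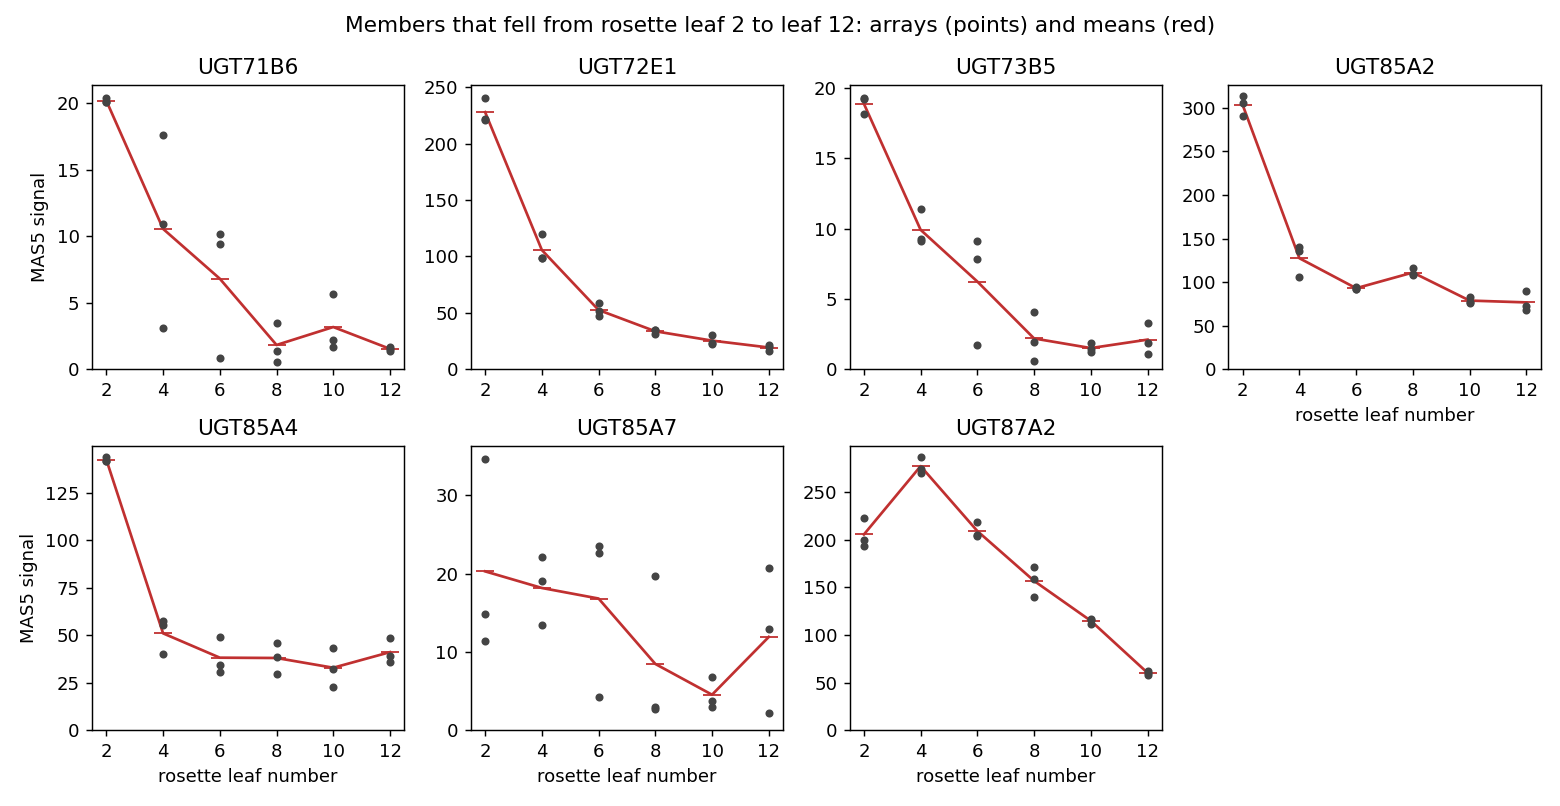
Signal of the 7 members that fell along the rosette, by leaf number from old leaf 2 to young leaf 12 (points are arrays, the red line joins the means of 3). UGT72E1 falls at every step, UGT87A2 peaks at leaf 4, UGT85A4 drops between leaves 2 and 4, and the arrays of UGT85A7 overlap.

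Beside these, UGT88A1, which acts on the flavonol quercetin in vitro, also had a lower mean at each of the 5 steps from leaf 2 to leaf 12, with a difference of -0.84 that stayed under the threshold. Of the hormone conjugators, the auxin enzyme UGT74D1 had a difference of -0.88 and the cytokinin enzyme UGT76C2 one of 0.61, neither called. UGT76E11 had the largest difference towards young leaves, 0.89, not called.

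In senescing leaves, 10 of the 26 members were higher and 2 lower than the mean of the 6 rosette leaf groups, where 16.4% of all probe sets tested were higher and 16.7% lower. Of the 12 members bright on all arrays, 2 were higher and 0 lower, against 13.1% and 14.9% of all probe sets bright on all arrays. The median difference was 0.44 over the 26 members and 0.09 over all probe sets. The 0.44 includes members that the filter admitted through senescing leaves. Among those bright on all arrays, the median was 0.33 over the 12 members and 0.11 over all probe sets. The senescing label was borne out by photosynthesis genes, since LHCB4.1, PSAN, PSBY, PRK and SBPASE fell. RCA was lower on each senescing array than on any rosette array. Of the 7 senescence genes looked for 3 had a probe set, namely SAG101 and the regulators WRKY6 and WRKY53. Both regulators rose, but not in senescing leaves alone. WRKY53 rose more from the 1 cm leaf 4 to the later leaf 4. WRKY6 was also called higher in cauline leaves than in rosette leaves, and all 3 in cotyledons than in leaves 1 and 2. SAG101 overlapped, at 79.1 to 97.7 in senescing leaves and 27.6 to 97.1 in rosette leaves.

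The 4 largest rises were those of UGT73B5, UGT72E1, UGT71B6 and UGT87A2. UGT73B5 rose by 3.83 ± 0.18 (adjusted p = 1.9e-26), its 3 senescing arrays lying between 138 and 173 and the 18 rosette arrays running from 0.57 to 19.3 with a median of 3.69. UGT72E1 rose by 2.95 ± 0.098 (adjusted p = 4.4e-33), from a rosette median of 41.1 (range 16.5 to 241). The abscisic acid enzyme UGT71B6 rose by 2.81 ± 0.19 (adjusted p = 5.0e-19), from a rosette median of 3.29 (0.57 to 20.4). UGT87A2 rose by 2.61 ± 0.072 (adjusted p = 7.9e-37), from a rosette median of 182 (57.6 to 287). None of the 4 had a senescing array as low as the highest rosette array. UGT73B5 and UGT71B6 lay above the percentile on all arrays of only 2 groups, senescing and cauline leaves, so that their rise is tied to the filter.

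UGT72B3 rose by 2.33 ± 0.13, with 88.6, 98.8 and 99.6 in senescing leaves and at most 23.96 in rosette leaves. UGT73D1 rose by 2.19 ± 0.18 and UGT76D1, which glucosylates dihydroxybenzoic acids, by 1.10 ± 0.16. Senescing leaves were the only group in which these last 2 lay above the percentile, so that their rise is tied to the filter that admitted them. UGT76D1 had 33.5, 30.7 and 34.02 there and at most 19.6 on a rosette array.

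UGT85A5 rose by 1.65 ± 0.11, with 156, 149 and 148 in senescing leaves. UGT84A3, which forms glucose esters of hydroxycinnamic acids, rose by 1.49 ± 0.081, with 207, 201 and 199 there and 54.1 to 93.7 in rosette leaves. The filter admitted UGT85A7 through 3 groups, senescing leaves among them, so that its rise here is in part tied to the filter. UGT85A7 rose by 1.08 ± 0.33 with overlapping arrays, 36.07, 31.6 and 24.6 against 2.16 to 34.7. Its difference was 0.98 without senescing array A and 0.997 without leaf 6 array A, and with leaf 12 array A left out it also ended just under the threshold.

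The 2 that fell were the cytokinin enzyme UGT76C2, by 1.71 ± 0.12 (adjusted p = 5.5e-19), and UGT76E11, by 1.23 ± 0.098 (adjusted p = 1.3e-16). UGT76C2 had a rosette median of 41.6 (33.3 to 72.8), and all 3 senescing arrays were below that range. UGT76E11 had 11.2, 7.53 and 8.41 in senescing leaves and 17.5 to 43.6 in rosette leaves. The other cytokinin enzyme, UGT76C1, had a difference of 0.39, not called.

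Against leaf 2 alone, the oldest rosette leaf, 7 members were higher and 3 lower. Of all probe sets, 10.6% were higher and 12.3% lower. The 7 include UGT71B6, UGT73B5, UGT73D1 and UGT76D1, whose rise is tied to the filter. Of the 12 bright on all arrays, 2 were higher and 2 lower, against 7.31% and 11.6% of all probe sets bright on all arrays. UGT85A4 (-1.32 ± 0.17) and UGT85A2 (-1.25 ± 0.13) were then lower in senescing leaves, and neither was called against all 6 rosette groups. The differences were 0.998 for UGT72E1, 0.76 for UGT85A5, 0.57 for UGT85A7 and -0.73 for UGT76E11, all short of the threshold. Against leaf 12 alone, UGT76D1 had 0.92.

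In cauline leaves, 9 of the 26 members were higher and 0 lower than the mean of the 6 rosette groups, where 7.09% of all probe sets tested were higher and 7.55% lower. Of the 12 bright on all arrays, 5 were higher and 0 lower, against 5.38% and 5.95%. The median difference was 0.46 over the members and 0.05 over all probe sets.

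UGT71B6 rose by 2.16 ± 0.19 (adjusted p = 2.2e-14) and UGT73B5 by 2.11 ± 0.18 (adjusted p = 1.7e-15), with cauline arrays between 40.6 and 51.8 for both genes, above every rosette array. Since the filter admitted both genes through senescing and cauline leaves alone, these rises are tied to it. UGT71B1, a neighbour of UGT71B6 on chromosome 3, had 317, 354 and 319.9 in cauline leaves and 89.4 to 115 in rosette leaves, a rise of 1.60 ± 0.066 (adjusted p = 5.0e-28). The auxin enzyme UGT74D1 had 193, 225 and 224 in cauline leaves and 67.8 to 153 in rosette leaves, a rise of 1.18 ± 0.095 (adjusted p = 4.0e-16). For each of these 4 genes the groups were apart.

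UGT88A1 rose by 1.16 ± 0.050 and UGT84A3 by 1.07 ± 0.081, both without overlap. UGT85A4 (1.29 ± 0.13), UGT72E1 (1.06 ± 0.098) and UGT85A5 (1.04 ± 0.11) were called although arrays of rosette leaf 2 reached or passed the cauline ones. UGT72E1 had 116, 129.7 and 112 in cauline leaves, with a mean between those of rosette leaves 4 and 2, and without cauline array B its difference was 0.996.

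Against rosette leaf 2 alone, 3 members were higher (UGT71B1, UGT71B6 and UGT73B5) and 1 lower. Of all probe sets, 4.08% were higher and 5.26% lower. UGT71B6 (1.002) and UGT73B5 (1.001) lay at the threshold, and their rises are tied to the filter. Of the 12 bright on all arrays, 1 was higher and 1 lower, against 2.46% and 3.53% of all probe sets bright on all arrays. The lower one was UGT85A2, with 109.8, 60.3 and 86.1 in cauline leaves and the leaf 2 signals given above, a fall of 1.79 ± 0.13 (adjusted p = 4.1e-17), and it was not among the 9. UGT72E1 then lay lower in cauline leaves, with a difference of -0.90 (adjusted p = 3.4e-08), and UGT85A4 had -0.14. UGT74D1 had 0.53, UGT84A3 0.78, UGT85A5 0.15 and UGT88A1 0.63, none of them called.

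**Figure D4:**
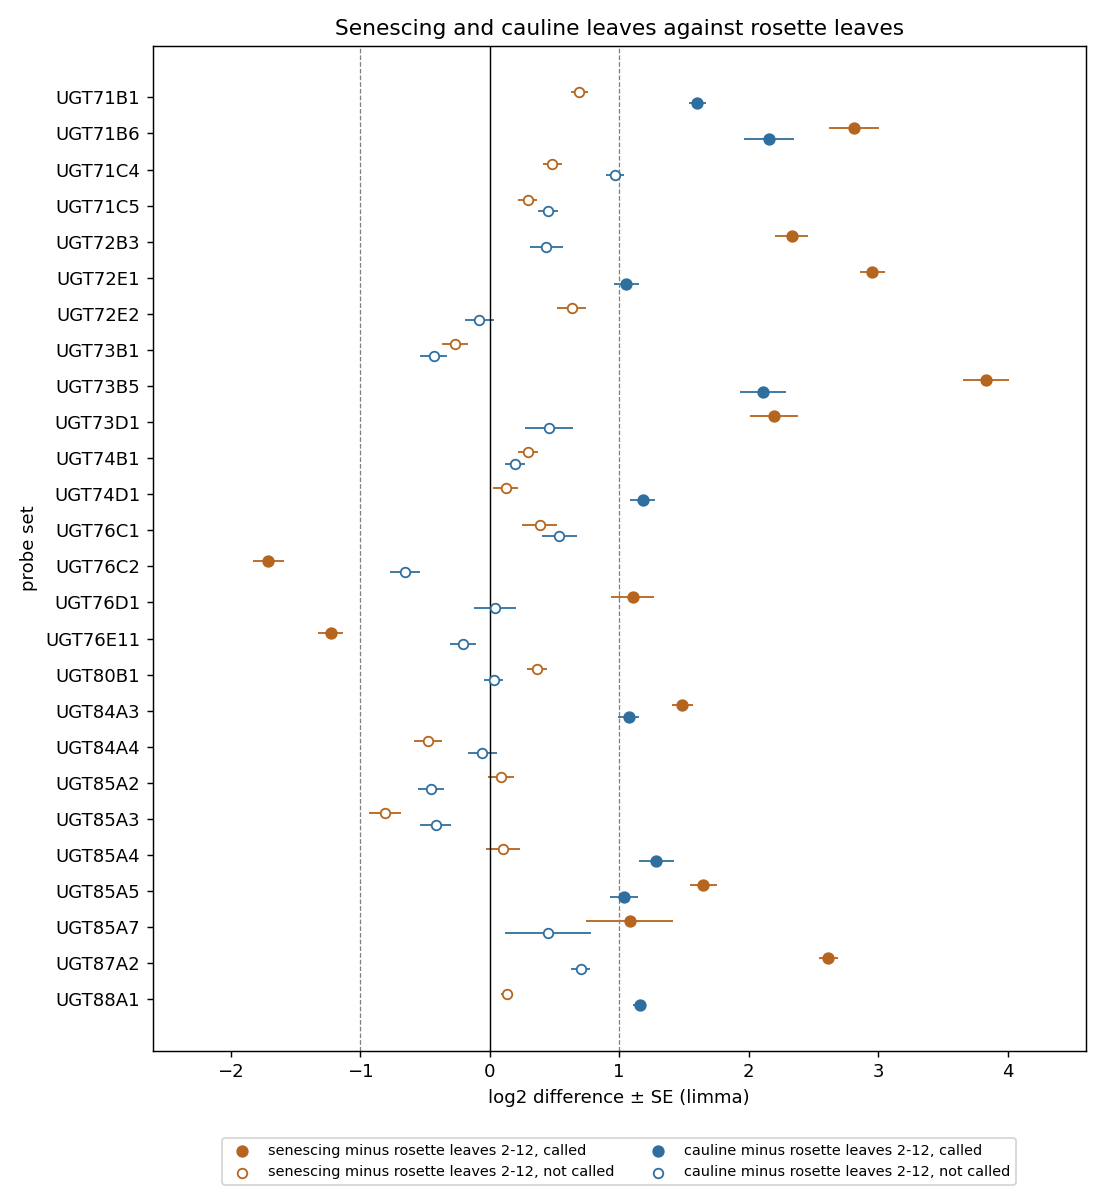
Log2 difference ± SE (limma) of the 26 tested UGT probe sets in senescing leaves (brown) and cauline leaves (blue) against the mean of the 6 rosette leaf groups, which both comparisons share. Filled points are called (adjusted p below 0.05 and beyond the dashed lines at 1 and -1).

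Senescing and cauline leaves were also compared directly, a comparison added after the data were seen. Of the 26 members 6 were higher and 5 lower in senescing leaves, where 6.58% of all probe sets tested were higher and 9.99% lower. Among the 12 bright on all arrays, 1 was higher and 3 lower, against 2.84% and 9.38%. Higher in senescing leaves were UGT87A2 (1.91 ± 0.094), UGT72E1 (1.90 ± 0.13), UGT72B3 (1.90 ± 0.17), UGT73D1 (1.74 ± 0.24), UGT73B5 (1.72 ± 0.23) and UGT76D1 (1.06 ± 0.21). Lower were UGT85A4 (-1.19 ± 0.17), UGT74D1 (-1.06 ± 0.12), UGT76C2 (-1.06 ± 0.16), UGT88A1 (-1.03 ± 0.065) and UGT76E11 (-1.02 ± 0.13). UGT71B6 differed by 0.66 ± 0.26, not called.

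In cotyledons, the seed leaves, 6 of the 26 members were higher and 0 lower than in leaves 1 and 2, where 6.99% of all probe sets tested were higher and 4.53% lower. Of the 12 bright on all arrays, 4 were higher and 0 lower, against 4.03% and 3.87%. The median difference was 0.33 over the members and 0.0042 over all probe sets.

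UGT72E1 had 239.9, 243 and 224 in cotyledons against 29.7, 30.7 and 31.4 in leaves 1 and 2, a rise of 2.72 ± 0.13 (adjusted p = 5.5e-25). UGT87A2 had 204, 170.5 and 182 against 64.8, 66.8 and 64.4 and rose by 1.42 ± 0.094 (adjusted p = 5.4e-19). UGT84A3 had 114, 110.3 and 98.4 against 42.8, 43.4 and 40.2 and rose by 1.24 ± 0.11 (adjusted p = 7.0e-15). The groups did not overlap for any of these genes.

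UGT72B3 had 41.1, 40.7 and 41.97 against 14.2, 17.1 and 12.3 and rose by 1.20 ± 0.17 (adjusted p = 1.6e-08). UGT85A2 rose by 1.06 ± 0.13, and its difference was 0.98 without array C of leaves 1 and 2. UGT74B1, which attaches the sulfur-bound glucose in the core synthesis of glucosinolates, rose by 1.01 ± 0.10. That call lay at the threshold, since the difference was between 0.97 and 0.99 without cotyledon array A or without array B or C of leaves 1 and 2.

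Between 1 cm leaf 4 and the later rosette leaf 4 of Col-0, 5 of the 26 members were higher in the later leaf and 2 lower, where 12.9% of all probe sets tested were higher and 11.6% lower. Of the 12 bright on all arrays, 1 was higher and 0 lower, against 10.5% and 10.5%. The share of members called in either direction, 26.9%, was near the 24.5% of all probe sets. The median difference was 0.23 over the members and -0.06 over all probe sets. The 1 cm samples are those with the soil note, and its part in these differences was not tested.

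UGT72E1 had 98.6, 98.9 and 119.5 in the later leaf and 27.4, 18.8 and 18.8 in the 1 cm leaf, a rise of 2.02 ± 0.13 (adjusted p = 3.3e-20). UGT87A2 had 287, 270.4 and 274 against 75.7, 59.5 and 60.6, a rise of 2.00 ± 0.094 (adjusted p = 1.4e-25). In both cases every later array was above every array of the 1 cm leaf.

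UGT76E11 had 22.6, 18.8 and 24.98 in the later leaf against 75.1, 79.5 and 70.97, and fell by 1.53 ± 0.13 (adjusted p = 1.7e-15). UGT76C2 had 36.1, 33.96 and 40.5 against 120.4, 118 and 114, and fell by 1.53 ± 0.16 (adjusted p = 1.2e-12). The groups did not overlap for either gene.

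UGT71B6 (1.24 ± 0.26), UGT73B5 (1.21 ± 0.23) and UGT73D1 (1.01 ± 0.24) were the other 3 that rose, all at signals of at most 20.3 in both groups. UGT71B6 had 0.93 without leaf 4 array C. UGT73D1 had 0.98 or 0.85 without array A or B of the 1 cm leaf, and 0.90 without array B of the later leaf. With the doubtful array moved to leaf 4, UGT71B6 had 0.95 and UGT73D1 0.84, both short of the threshold.

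Within leaf 7, 1 of the 26 members differed between petiole and blade. UGT85A5 had 15.9, 13.8 and 14.0 in the petiole and 36.6 to 48.9 in the 6 arrays of the blade, and fell by 1.18 ± 0.12 (adjusted p = 3.8e-12), where 6.93% of all probe sets were called, 2.82% lower and 4.11% higher in the petiole. None of the 12 bright on all arrays was called, against 1.51% higher and 1.49% lower. At an adjusted p below 0.05 alone, 15 of the 26 members differed, against 53.6% of all probe sets, and 8 of the 12 against 56.8%. UGT87A2 had 129, 102 and 98.1 in the petiole and 189.7 to 246 in the blade, a difference of -0.97 ± 0.081. UGT74B1 ran the other way, with 509, 554 and 459 in the petiole and 245 to 319 in the blade, a difference of 0.83 ± 0.088. The petiole held the highest group mean of UGT74B1 in the series, while UGT74D1, UGT80B1, UGT84A3, UGT85A5 and UGT88A1 had their lowest there.

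Between the distal and the proximal part of the blade, 1 of the 26 members was called, where 0.620% of all probe sets were called, 0.392% higher and 0.228% lower in the distal part. This was UGT73D1, with 9.94, 11.9 and 7.76 in the distal and 0.90, 1.04 and 2.21 in the proximal part, a difference of 1.09 ± 0.24 (adjusted p = 8.5e-04). None of the 12 bright on all arrays was called, against 0.0306% higher and 0.051% lower. All 6 signals of UGT73D1 lay below the 40th percentile of their arrays, and without distal array B the difference was 0.995.

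In the gl1T line, no member was called against Col-0 in 1 cm leaf 4, where 3.95% of all probe sets were called (3.40% higher and 0.550% lower), or in leaf 12, where 3.82% were called (1.64% higher and 2.18% lower). At an unadjusted p below 0.05 in limma, 11 members differed in leaf 4, against 41.3% of all probe sets, and 12 in leaf 12, against 37.4%. The largest difference in leaf 4 was that of UGT87A2, with 108, 126 and 136 in gl1T and 75.7, 59.5 and 60.6 in Col-0, at 0.86 ± 0.094 (adjusted p = 5.9e-11). In leaf 12 it was that of UGT76E11, with 75.2, 75.8 and 74.2 in gl1T and 41.3, 32.3 and 42.7 in Col-0, at 0.86 ± 0.13 (adjusted p = 2.7e-07). For both genes the gl1T arrays lay above all Col-0 arrays, and the size stayed under the threshold. The difference between the effects in the 2 leaves was called for 0 of the 26 members, where 8.20% of all probe sets were called, 2.88% higher and 5.33% lower. At an adjusted p below 0.05 alone it was found for 7 members, where 32.1% of all probe sets met that, and at an unadjusted p below 0.05 in limma for 9, against 40.9%. The soil note stands on the Col-0 leaf 4 samples and not on those of gl1T, and its part in the leaf 4 values was not tested.

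In short-day rosettes, 1 of the 26 members was higher than in the 6 rosette leaf groups and 0 lower, where 7.83% of all probe sets were higher and 8.93% lower. None of the 12 bright on all arrays was called, against 4.57% higher and 6.61% lower. UGT76E11 rose by 1.23 ± 0.064 (adjusted p = 4.2e-24), with 54.8 to 109 in the 9 short-day arrays (median 70.7) and 17.5 to 43.6 in the 18 rosette arrays. Against rosette leaf 12 alone its difference was 0.89, short of the threshold. UGT88A1 (0.90 ± 0.033) and UGT73B1 (0.89 ± 0.068) also had all short-day arrays above all rosette arrays, at differences under the threshold. Photoperiod, temperature, tissue and the PYK10 level given above all differ between these groups, and cannot be told apart.

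Among the short-day sets, 1 of the 26 members was higher in set 90 than in set 87 and 3 were lower, where 6.01% of all probe sets were called, 1.97% higher and 4.04% lower. Of the 12 bright on all arrays, 0 were higher and 2 lower, against 0.918% and 3.54%. UGT72B3 had 8.36, 13.8 and 10.9 in set 90 and 36.6, 49.9 and 37.2 in set 87, and fell by 1.47 ± 0.17 (adjusted p = 1.4e-10). UGT71C4 had 186, 181 and 179 against 383, 408 and 358, and fell by 1.05 ± 0.095 (adjusted p = 1.1e-13). UGT84A3 had 41.6, 46.2 and 35.8 against 97.7, 80.3 and 96.6, and fell by 1.05 ± 0.11 (adjusted p = 3.4e-12). For these genes set 90 lay below set 87 on every array.

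UGT84A3 had differences of -0.999 without set 87 array A, -0.96 without set 90 array D and -0.95 with the replicate letter as a block. UGT85A7 went up, from 7.87, 2.93 and 16.6 in set 87 to 26.8, 35.7 and 41.9 in set 90. This is a rise of 1.51 ± 0.44 (limma, adjusted p = 0.0031). The filter admitted UGT85A7 through 3 groups, set 90 among them, so that this rise is in part tied to the filter. With a constant 4 times larger added to every signal, the difference was 0.83, short of the threshold. The labels give no age for these sets, and the PYK10 signal also fell from set 87 to set 90.

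On sucrose medium, 2 of the 26 members were higher than in leaves 1 and 2 from soil and 0 lower, where 7.21% of all probe sets were called, 4.83% higher and 2.38% lower. None of the 12 bright on all arrays was called, against 2.62% higher and 1.68% lower. UGT72E1 had 138, 125 and 147 on sucrose medium against 29.7, 30.7 and 31.4, a rise of 1.96 ± 0.13 (adjusted p = 6.3e-19). UGT73B1 had 133, 117 and 130.2 against 52.9, 54.2 and 61.1, a rise of 1.10 ± 0.14 (adjusted p = 1.1e-09). Both genes were apart on every array, and the mean of UGT73B1 on sucrose medium, 127, was its highest in the series. UGT84A3 (0.99 ± 0.11), UGT85A2 (0.95 ± 0.13) and UGT72B3 (0.92 ± 0.17) lay just under the threshold. Medium, day length, temperature and leaf stage differ together here.

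Over the 12 comparisons other than that of the gl1T effects, 20 members were called at least once, 35 times higher and 15 times lower, and 6 of the tested members were called in none. These 20 are 76.9% of the 26, where 54.1% of all probe sets tested were called at least once. Among the 12 bright on all arrays 9 were, or 75.0%, against 46.6% of all probe sets bright on all arrays. UGT72E1 was called in 6 comparisons, and UGT71B6, UGT73B5, UGT84A3 and UGT87A2 in 4 each. Several of these comparisons share the same rosette arrays and are not independent. The 6 without a call were UGT71C5, UGT72E2, UGT76C1, UGT80B1, UGT84A4 and UGT85A3.

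Genes of the pathways that supply or share the acceptors were measured only in part. Of the lists for UDP-sugar supply, phenylpropanoid synthesis, salicylic acid, auxin conjugation, glucosinolate synthesis and detoxification, 1, 3, 1, 4, 2 and 3 genes were tested, and none for abscisic acid or cytokinin. In senescing leaves 2 of the 4 auxin genes rose and 0 fell, namely the auxin-amino acid synthetases GH3.5 (2.45 ± 0.092) and GH3.17 (1.89 ± 0.19). Of the 3 detoxification genes, all glutathione transferases, GSTU16 rose (2.10 ± 0.071) and GSTU26 (-1.16 ± 0.13) and GSTU27 (-1.32 ± 0.065) fell. Of the 2 glucosinolate genes, GSTU20 fell (-2.64 ± 0.073) and BCAT4 was not called, where the S-glucosyltransferase UGT74B1 had 0.30.

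Along the rosette from leaf 2 to leaf 12, BCAT4 fell by 2.94 ± 0.077, and UGT74B1 had a difference of -0.70 that was not called. BSMT1, which methylates salicylic and benzoic acid, fell by 2.19 ± 0.22, GSTU16 by 1.29 ± 0.079 and GSTU27 by 1.07 ± 0.072, and of the 3 phenylpropanoid genes the beta-glucosidase gene BGLU45 fell by 1.27 ± 0.16. BGLU45 had a mean of 27.1 in leaf 2 and of at most 13.9 in any other group. The filter thus admitted it through leaf 2 alone, and its fall is tied to that. BSMT1 was also dim, with means of 28.3 in leaf 2 and 1.89 in leaf 12. Its mean was 23.7 in cauline leaves and at most 17.3 in any other group. The filter could thus admit BSMT1 only through leaf 2 or cauline leaves, and its fall is in part tied to that. USP, the single gene measured for UDP-sugar supply, was not called in any comparison.

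Many UGT genes lie side by side. By the RefSeq annotation of assembly TAIR10.1, 29 of the 45 members stand in 17 pairs of neighbours with at most 5 genes between them, 14 of which have no gene between. Both genes were tested in 7 pairs. Over the 20 group means, Pearson's r was 0.06 for UGT71C5 and UGT71C4, 0.44 for UGT85A7 and UGT85A2, 0.37 for UGT85A2 and UGT85A5, and -0.37 for UGT85A5 and UGT85A3. It was 0.61 for UGT71B1 and UGT71B6, -0.39 for UGT84A3 and UGT84A4 and -0.01 for UGT76C2 and UGT76C1. These values describe 20 group means that share arrays and scaling. None of these 7 pairs had its highest group mean in common. The cluster of UGT85A genes on chromosome 1 was highest in short-day set 90 for UGT85A7 and in rosette leaf 2 for UGT85A2. It was highest in senescing leaves for UGT85A5 and in rosette leaf 4 for UGT85A3. Not all of these peaks are distinct. UGT85A3, with a highest mean of 24.65, lay above the percentile on all arrays of 2 groups and UGT85A7 of 3. The set 90 and senescing arrays of UGT85A7 overlapped. UGT76C1 and UGT84A4 did not meet the criterion of the F test.

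**Figure D5:**
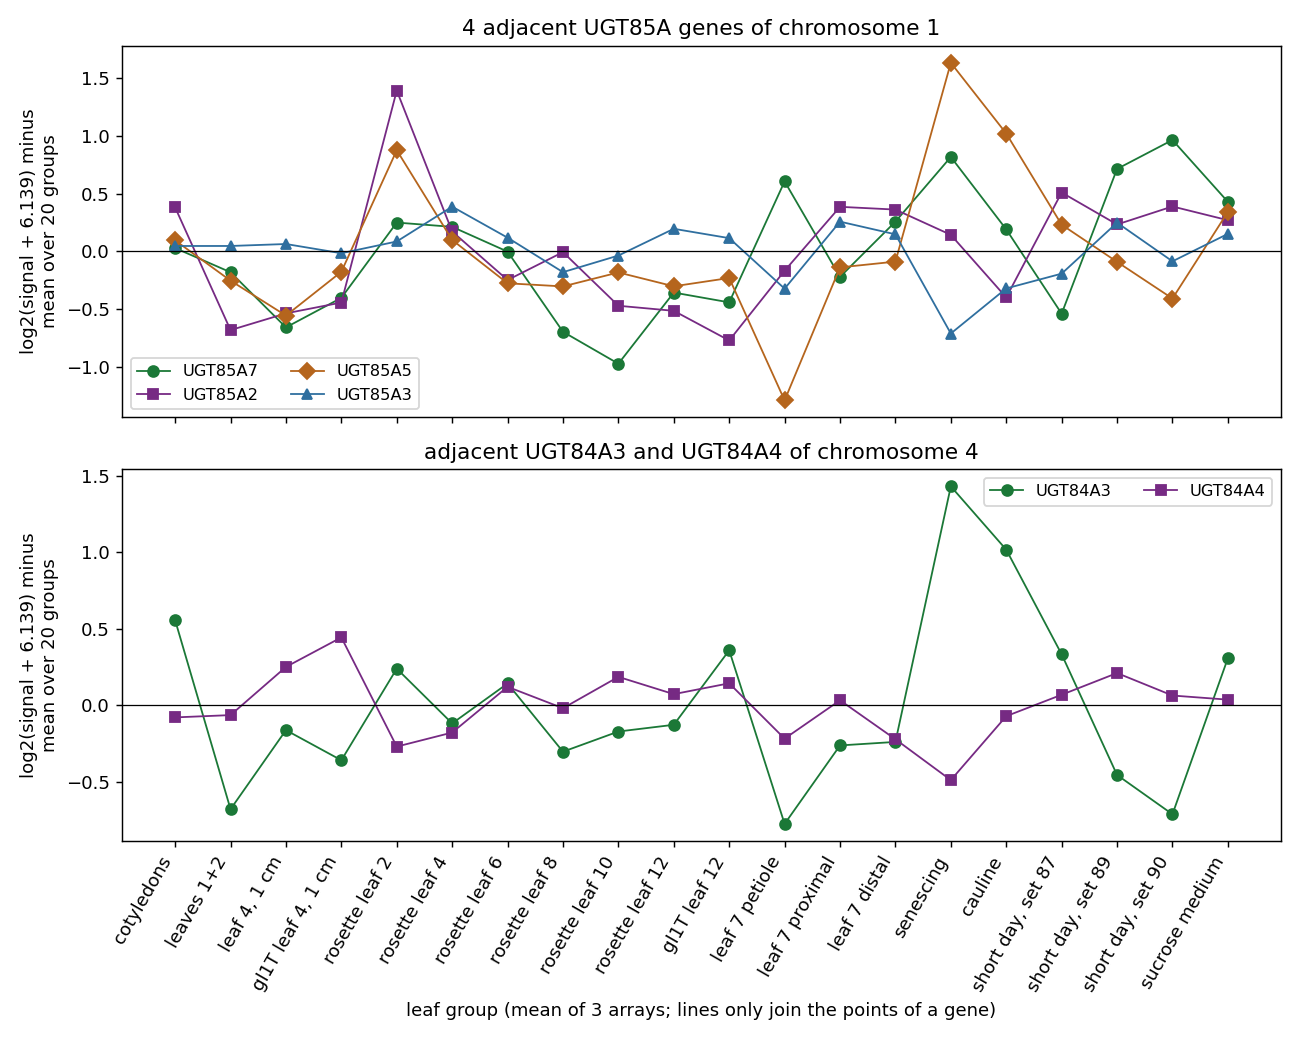
Group means of 4 neighbouring UGT85A genes (top) and of UGT84A3 and UGT84A4 (bottom) over the 20 leaf groups, each as log2(signal + 6.139) minus the mean of that probe set over the groups. The highest means of the neighbours lie in different groups, as UGT85A5 in senescing leaves and UGT85A2 in rosette leaf 2. UGT84A3 is highest where UGT84A4 is lowest, in senescing leaves, but UGT84A4 spans only 0.93. UGT85A3 and UGT85A7 are dim and lie above the filter percentile on all arrays of only 2 and 3 groups.

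Likeness was also taken over every pair of tested members, whether neighbours or not. Over all 325 pairs of tested members the median r was 0.22, and over the 16 pairs of the same lettered group it was 0.16. The most alike were UGT71B6 and UGT73B5 (r = 0.95, and 0.92 over the 19 groups without senescing leaves) and UGT74D1 and UGT88A1 (0.92 with and without senescing leaves). UGT71B6 and UGT73B5 lie on chromosomes 3 and 2, and for most groups both are below the percentile. The filter admitted both through senescing and cauline leaves alone, so that their likeness is tied to it. Leaving out senescing leaves keeps the cauline leaves, so the r of 0.92 is tied to the filter as well. The most opposed were UGT76C2 and UGT87A2, with an r of -0.84, which was -0.72 without senescing leaves. UGT71C5 and UGT76E11 had -0.81 and, as the most opposed pair without senescing leaves, -0.80. An r above 0.8 was found in 14 pairs over the 20 groups and in 6 without the senescing leaves.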

How the data were processed

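The deposited table holds 1 signal intensity per probe set and array, which the authors made with MAS5, per the submitters' processing notes. Neither its version nor its settings are given in the sources used here. Precision was taken from the spread of the 3 arrays in each group. The members and all gene lists were chosen with earlier results of these data known, and list genes named were the largest called ones of a comparison.

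Without the 64 control probe sets, each signal was put on the scale log2(signal + 6.139), the constant being the median over arrays of the 20th percentile, with no further normalization. The 15808 probe sets that passed the filter at each array's 40th percentile (given above) were fitted in limma 3.58.1 (R 4.3.3, lmFit and eBayes with an intensity trend, 40 residual degrees of freedom), with Benjamini-Hochberg adjustment over all of them. Groups came from the labels and entered unpaired. The replicate letters, checked over 551 pairs of arrays with the same letter in different groups, gave correlations of deviations from -0.18 to 0.17, 5 of them above 0.1, so they do not pair the arrays. Probe sets were named from the platform annotation, which gave 1 gene for 13513 of them, several for 503 and was without an entry for 8730, and all 45 members matched RefSeq with 0 symbols changed. Values per array are given for up to 4 called members per comparison with the largest differences and no overlap, and for the 6 widest and 4 narrowest ranges. Other values shown were chosen afterwards. Scripts were first run on simulated data with known changes. Alternatives were another pseudocount, filter, normalization, partner group or trend, a replicate block, only the groups compared, the doubtful array moved, and each array left out. Figures were drawn with matplotlib.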

Additional observations from a re-analysis of the deposited data

Results flagged for a closer look

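The effect of the gl1T line differed between leaf 12 and 1 cm leaf 4 for 7 of the 26 tested members, by the interaction term in limma at an adjusted p below 0.05. This is 26.9% of the members, where 32.1% of all probe sets tested met the same condition, and 5 of the 7 are among the 12 bright on all arrays, where 36.0% of all such probe sets met it. None of the 7 reached a difference of 1 on the log2 scale. The soil note stands on the Col-0 leaf 4 samples and not on those of gl1T, and its part in these values was not tested. Each value is the log2 effect in leaf 12 minus that in leaf 4, with both effects beside it. UGT76E11 had 0.92 ± 0.18 (-0.05 in leaf 4 and 0.86 in leaf 12, adjusted p = 6.0e-05). UGT88A1 had 0.80 ± 0.093 (-0.17 and 0.63, adjusted p = 3.3e-10). UGT74D1, the auxin enzyme, had 0.73 ± 0.18 (-0.34 and 0.39, adjusted p = 9.6e-04). UGT84A3 had 0.68 ± 0.15 (-0.20 and 0.49, adjusted p = 2.4e-04). UGT71B1 was higher in gl1T in both leaves and had 0.40 ± 0.12 (0.34 and 0.73, adjusted p = 0.010). Running the other way, UGT73B1 had -0.63 ± 0.19 (0.32 and -0.31, adjusted p = 0.0082), and UGT71C5, which glucosylates abscisic acid, had -0.63 ± 0.14 (0.30 and -0.33, adjusted p = 3.3e-04).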

How the results depend on the processing

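Of 110 counts of members under alternatives other than left-out arrays, 18 moved by more than 1.5 times. With the pseudocount 4 times larger, the counts called were 4 for leaf position, 2 for cotyledons, 4 for the later leaf 4, 0 for the petiole, 0 for the distal blade, 0 for short-day rosettes, 0 for set 90 against set 87 and 1 for sucrose medium, and 24 of the 50 member calls were lost. With a pseudocount of 1 they were 4 for the petiole, 4 for short-day rosettes, 6 for sucrose medium, 1 for gl1T in leaf 12 and 1 for the difference of the gl1T effects. The filter at the 60th percentile gave 0 for the distal blade, and quantile normalization gave 1 for sucrose medium. Rosette leaf 2 as the only partner gave 4 for cauline leaves and 7 for short-day rosettes, and leaf 12 as the only partner gave 3 for short-day rosettes. Against leaf 2 alone, UGT72E1 (-0.90) and UGT85A4 (-0.14) turned sign in cauline leaves. With single arrays left out, counts ran from 0 to 1 for the distal blade, from 1 to 2 for the petiole (2 without petiole array A or proximal array B) and from 2 to 4 for sucrose medium (4 without array B of leaves 1 and 2), and 19 of 723 member values lost their call. The replicate block left each count as it was, 22 for the F test among them, except that set 90 against set 87 gave 3 in place of 4. No alternative was left out. The causes of these changes were not tested, apart from what each alternative removes. Of the 26 tested members 14 lay below the 40th percentile on some arrays, and of the 24 calls lost with the larger pseudocount 18 were theirs and 6 those of members bright on all arrays.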
